A study of Mus musculus with 22 samples.

Results

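Hepatocellular carcinomas of mice lacking the bile phospholipid transporter Mdr2 were compared with carcinomas of mice that also carried a super-repressor of NF-kB in their hepatocytes. The comparison took every sample labelled Mdr2-/-,IkB-SR (tumours 3, 4, 6, 8, 9 and 10) and every sample labelled Mdr2-/- (tumours 1, 2, 5 and 7), which made 10 of the 11 samples of the series and 20 of its 22 arrays. All 10 tumours share the biallelic Mdr2 knockout. The IkB-SR mice additionally carried a pair of transgenes, with the IkB super-repressor controlled by tetracycline and its transactivator driven by the hepatocyte-specific C/EBP promoter of the line TALAP1. The remaining sample, 1 wild-type liver, stands beside the tumours as a single value and entered no test. The labels give the genetic background as mixed and the sex as unknown, and state no age. The series design describes individual mice, whereas the sample labels number tumours only, so the p-values measure the spread between these tumours.

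NF-kB is a family of transcription factors that is held in the cytoplasm by IkB proteins until a signal such as TNF or a bacterial product leads to IkB degradation. The super-repressor is a form of IkB-alpha, the product of Nfkbia, that resists this degradation, so that NF-kB stays inactive in the cells that make it. In the Mdr2-knockout liver, bile without phospholipid injures the bile ducts, and a long inflammation precedes the tumours. NF-kB is known there both for keeping hepatocytes alive and for the cytokines that link them to macrophages and endothelial cells. The transgene acts in hepatocytes, while the RNA came from whole tumour tissue. In such bulk samples, fewer cells of a type and less RNA per cell cannot be told apart.

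Each tumour was hybridised on a pair of arrays with swapped dyes against a pooled reference RNA, and its level of a gene is the mean log2 ratio of both arrays. The log base is not stated and was taken as 2. Tumour over reference is the likely direction, since the hepatocyte markers averaged 4.41 to 4.87 in the Mdr2-KO and 4.58 to 5.59 in the IkB-SR tumours, far above a reference mixed from many tissues. Between 19576 and 25000 of 37632 spots had a value on each tumour array, and the number of arrays limits the precision. The tumours fell into sets by the spread of the difference between their swapped arrays, which are called dye set 1 (Mdr2-KO 1 and 2, IkB-SR 3, 4, 9 and 10) and dye set 2 (Mdr2-KO 5 and 7, IkB-SR 6 and 8). The labels name no batch. Differences below are log2 differences, IkB-SR minus Mdr2-KO, unless they are called levels.

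Nfkbia, the parent gene of the transgene, checks the group labels. Its levels in Mdr2-KO tumours 1, 2, 5 and 7 were 0.30, 0.12, 0.05 and 0.04. In the IkB-SR tumours the lowest level was 0.00, the median 2.28 and the highest 3.11. The lowest was that of the sample labelled IkB-SR 8, which lay below every Mdr2-KO tumour, while the other IkB-SR tumours lay above all of them. The difference was 1.82 (SE 0.49, two-sided exact permutation p = 0.0429, where 0.00476 is the smallest possible). It was 2.21 without the sample labelled IkB-SR 8, and the exact permutation p was 0.0833 without Mdr2-KO 2, 5 or 7. No source used here says whether the Nfkbia probe reads the transgene. Abcb4, the gene of Mdr2, differed by -0.13 (SE 0.30). The position of its probe relative to the disruption is not given, so that value checks nothing.

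Eif2s3y, a translation factor gene of the Y chromosome, had levels of -4.01, -4.00, -3.95 and -3.67 in Mdr2-KO tumours 1, 2, 5 and 7. Low levels were also found in IkB-SR tumours 3, 4 and 10, at -3.54, -2.98 and -3.06. High levels were found in IkB-SR tumour 6 (2.34), IkB-SR tumour 9 (2.46) and the sample labelled IkB-SR 8 (1.63). The mean level differed by 3.39 between the groups (two-sided exact permutation p = 0.0381). That p was 0.0556 without IkB-SR 3, 4 or 10 and 0.103 without IkB-SR 6, 8 or 9. In dye set 2 every IkB-SR tumour was high and every Mdr2-KO tumour low, so there the transgene and the signal cannot be told apart.

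Promoters were searched for the NF-kB consensus, a motif of 10 bases, on both strands from 250 bases before to 50 bases after each RefSeq gene start. It was found in 4.51% of 32851 promoters, and 6.21% of the 9539 tested genes with a promoter had at least 1 match. Among the 25 genes per direction that lead the comparison, 3 of 18 lower genes and 1 of 18 higher genes with a promoter in the table had a match. A match is a description and no site. The windows of 60 bases around these matches are shown because they are the leading genes' own promoter sequences that carry the motif of the factor the transgene inhibits. They come from RefSeq (GRCm38.p6), run 5′ to 3′ on the gene's strand, and have the matched bases in capitals. They lie at chr12:55492642-55492701 on the minus strand for Nfkbia, chr1:134181952-134182011 on the plus strand for Chil1, chr17:34589744-34589803 on the plus strand for Gpsm3 and chr17:46032461-46032520 on the minus strand for Vegfa.
Nfkbia: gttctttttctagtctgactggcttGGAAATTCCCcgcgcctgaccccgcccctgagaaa
Chil1: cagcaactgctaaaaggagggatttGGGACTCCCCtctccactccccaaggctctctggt
Gpsm3: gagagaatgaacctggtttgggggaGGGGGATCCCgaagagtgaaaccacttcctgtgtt
Vegfa: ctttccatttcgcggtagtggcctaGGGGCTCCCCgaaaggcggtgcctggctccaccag
Nfkbia itself was the higher gene with a match, and the other 3 genes were among the leading lower ones described below.

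Across 18188 features, 11878 of them named genes, 5 genes passed an adjusted p of 0.05 in limma, which is 0.0275% of those tested. Timd4, Ccl24, Folr2 and Fbl fell and Cat rose in IkB-SR tumours. When the adjustment ran over named genes only, 19 genes passed (0.16%), of which 16 were lower and 3 higher. At an unadjusted p under 0.05, 553 features were higher (3.04%) and 1705 lower (9.37%). After quantile normalization that split was 1090 higher and 1002 lower, while after median centring it was 509 higher and 1612 lower. The excess of lower features thus depends on which scaling is used. All 6 IkB-SR tumours lay above all Mdr2-KO tumours for 191 features (1.05%) and below them for 468 (2.57%). The median difference over all features was -0.02, and 56.8% were below 0.

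Timd4, a phosphatidylserine receptor of resident macrophages, had levels of 2.74, 2.15, 2.01 and 2.26 in Mdr2-KO tumours 1, 2, 5 and 7. Its lowest, median and highest levels in IkB-SR tumours were 0.54, 0.61 and 1.15. Every IkB-SR tumour was below every Mdr2-KO tumour and near the wild-type liver, which was at 0.43. Timd4 fell by 1.56 (SE 0.17, 2.95-fold, adjusted p = 0.0421). The probe measured in all tumours gave -0.80 on its own. The levels and the fold change above also average a probe with missing values, so their size rests partly on that probe. Over both probes the fall was -1.87 in dye set 1 and -1.10 in dye set 2.

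Folr2, a folate receptor of tissue macrophages, had levels of 3.39, 2.79, 3.03 and 3.56 in Mdr2-KO tumours 1, 2, 5 and 7. Its levels in IkB-SR tumours ran from 1.05 over a median of 1.62 to 1.95, below all Mdr2-KO tumours and below the wild-type liver at 2.45. Folr2 fell by 1.61 (SE 0.19, 3.05-fold, adjusted p = 0.0421). Within dye sets 1 and 2 the differences were -1.37 and -1.99.

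Ccl24, an eotaxin chemokine that attracts eosinophils, had levels of -0.85, -1.28, -1.06 and -0.71 in Mdr2-KO tumours 1, 2, 5 and 7. The IkB-SR tumours lay between -2.42 and -1.97 with a median of -2.12. The groups did not overlap, and the wild-type liver at -1.33 was nearer the Mdr2-KO tumours. Ccl24 fell by 1.20 (SE 0.14, 2.29-fold, adjusted p = 0.0421), with -1.09 and -1.31 within dye sets 1 and 2.

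Fbl encodes fibrillarin, the methyltransferase of the small nucleolar ribonucleoproteins that modify ribosomal RNA. Its levels in Mdr2-KO tumours 1, 2, 5 and 7 were -1.36, -1.25, -1.40 and -1.30, and its IkB-SR levels ran from -1.85 over -1.81 to -1.70. Both groups were tight and apart, with the wild-type liver at -1.72 among the IkB-SR tumours. Fbl fell by 0.47 (SE 0.06, 1.38-fold, adjusted p = 0.0421), a small change that was -0.47 in dye set 1 and -0.49 in dye set 2.

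Cat, the peroxisomal catalase that breaks down hydrogen peroxide, was the only gene past the threshold that was higher in IkB-SR tumours. Its levels were 3.26, 3.16, 3.20 and 3.56 in Mdr2-KO tumours 1, 2, 5 and 7. In IkB-SR tumours they ran from 4.16 over a median of 4.91 to 5.24, above all Mdr2-KO tumours and above the wild-type liver at 3.60. Cat rose by 1.52 (SE 0.19, 2.86-fold, adjusted p = 0.0421), with 1.72 and 1.19 within dye sets 1 and 2. Its probes gave 2.04 and 0.99.

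All 5 adjusted p-values were just inside the threshold and share 1 value. Fits without Mdr2-KO 1, 5 or 7 or without IkB-SR 3, 9 or 10 called 0 features with limma, where 1765 to 2078 features had an unadjusted p under 0.05, while the fit without Mdr2-KO 2 called 34. When only probes measured in all tumours were averaged, limma called 0 features (551 higher and 1711 lower unadjusted).

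**Figure D1:**
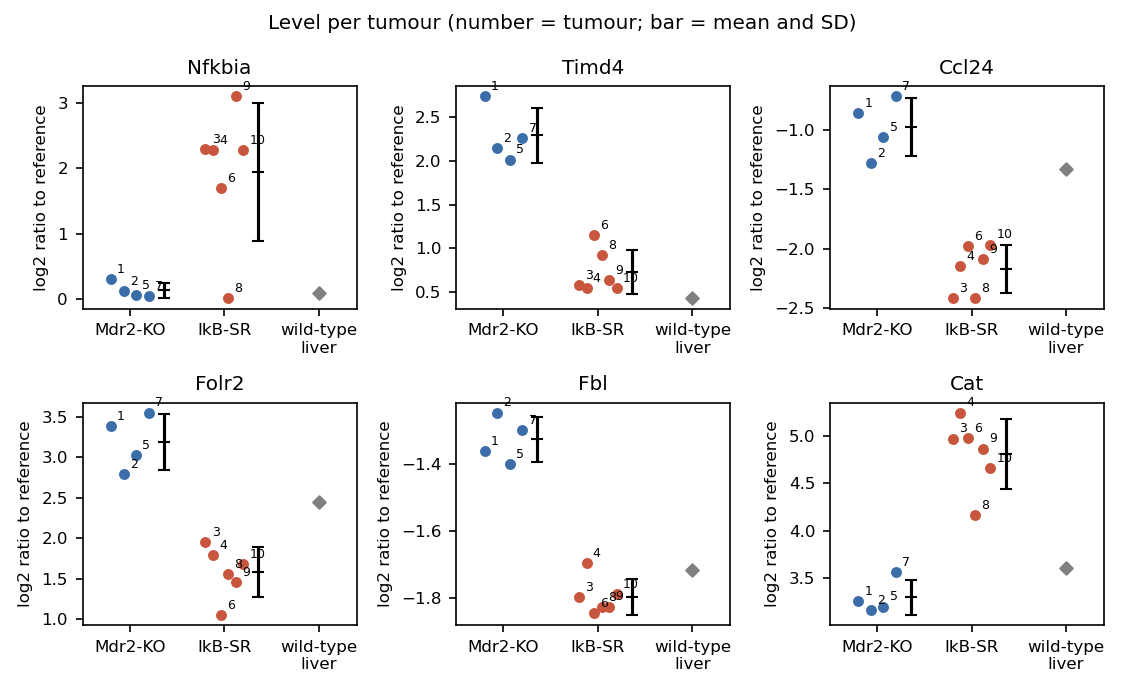
Level of Nfkbia and the 5 genes past the threshold in each tumour (y axis, log2 ratio to the reference; points numbered by tumour, black bars give mean and SD, grey diamond the 1 wild-type liver). The groups are apart in every gene except Nfkbia, where the sample labelled IkB-SR 8 lies at 0.00, below the Mdr2-KO tumours.

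The 25 leading lower genes, named genes with the smallest p among those differing by at least 0.58 with the same sign in both dye sets, had differences of -2.02 to -0.63 and adjusted p-values of 0.0421 to 0.0794. All 25 had their IkB-SR tumours below every Mdr2-KO tumour, which is a description, since they were picked by their p in these tumours. Their differences were more than 1.5 times larger in dye set 1 for 3 of them and in dye set 2 for 6. Of the 25, 7 stand on the marker lists of macrophages, endothelium and platelets, namely Timd4, Folr2, Fcna, Cd5l, Lyve1, Aqp1 and Pf4.

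Several of the 25 are secreted proteins. Vegfa, the growth factor that drives blood vessel sprouting, had levels of 1.42, -0.15, 1.34 and 1.61 in Mdr2-KO tumours 1, 2, 5 and 7. In IkB-SR tumours its levels were -1.10 to -0.50 with a median of -0.97. Mdr2-KO tumour 2 was thus closer to the IkB-SR tumours than to the rest of its own group, and the wild-type liver was at -0.35. Vegfa differed by -1.96 (SE 0.31, adjusted p = 0.0695), and its 3 probes gave -1.92, -2.03 and -1.92. The chemokine Cxcl9, which interferon gamma induces and which attracts T cells, differed by -1.64 (SE 0.23, adjusted p = 0.0531). The platelet chemokine Pf4 differed by -1.32 and the chitinase-like protein Chil1 by -1.18, the latter with 5 IkB-SR tumours measured.

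A second group builds or binds the extracellular matrix. Sparc, a collagen-binding glycoprotein, had levels of -1.05, -1.16, -1.72 and -1.53 in Mdr2-KO tumours 1, 2, 5 and 7. It lay at -4.29 to -2.19 with a median of -3.39 in IkB-SR tumours, where the wild-type liver was at -3.55. Sparc differed by -1.96 (SE 0.33, adjusted p = 0.0794). The laminin chain gene Lamc1 differed by -0.64 and Emilin2, an elastic fibre glycoprotein, by -1.01. Lims1, an adaptor of integrin adhesions, differed by -0.84 over all its probes and by -0.54 over those measured in all tumours.

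The remaining leading lower genes had varied roles. Hmox1, the haem-degrading oxygenase, differed by -1.24 (adjusted p = 0.0531) and the macrophage transcription factor Maf by -1.09. Gnai2, an inhibitory G protein subunit through which chemokine receptors signal, had levels of -0.45, -0.67, -0.51 and -0.57 in the Mdr2-KO tumours against -1.63 to -1.06 with a median of -1.46 in the IkB-SR tumours. Its difference was -0.84 (SE 0.11, adjusted p = 0.0531), and Gpsm3, a regulator of such G proteins in leukocytes, differed by -0.63. Impdh1, an enzyme of guanine nucleotide synthesis, differed by -1.0, the proteoglycan core of secretory granules Srgn by -1.07, the adaptor Dok2 by -0.83, the fatty acid binding protein Fabp7 by -1.06 and Cdr2 by -0.93. The neurotrophin receptor gene Ntrk2 differed by -0.92, but the probe measured in all tumours gave 0.03, so this difference rests on a probe with missing values.

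The 25 leading higher genes had adjusted p-values of 0.0421 to 0.184, and 20 of them had all IkB-SR tumours above all Mdr2-KO tumours. For 17 of the 25 the difference was more than 1.5 times larger in dye set 1 than in dye set 2, and for 0 the other way. Among them were Phyh and Scp2, which like Cat encode peroxisomal proteins. Phyh, the peroxisomal hydroxylase that starts the breakdown of branched fatty acids, had levels of 4.30, 4.22, 4.53 and 4.59 in Mdr2-KO tumours 1, 2, 5 and 7 and 4.78 to 5.51 with a median of 5.20 in IkB-SR tumours. The groups were apart, with a difference of 0.80 (SE 0.15, adjusted p = 0.0948), 1.09 in dye set 1 and 0.37 in dye set 2. Scp2, whose gene gives a peroxisomal thiolase and a sterol carrier, had levels of 1.49, 1.87, 2.33 and 1.18 against 2.38 to 3.54 with a median of 2.79, and differed by 1.16 (SE 0.26, adjusted p = 0.115). Unlike most, it was larger in dye set 2 (1.38) than in dye set 1 (1.06).

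**Figure D2:**
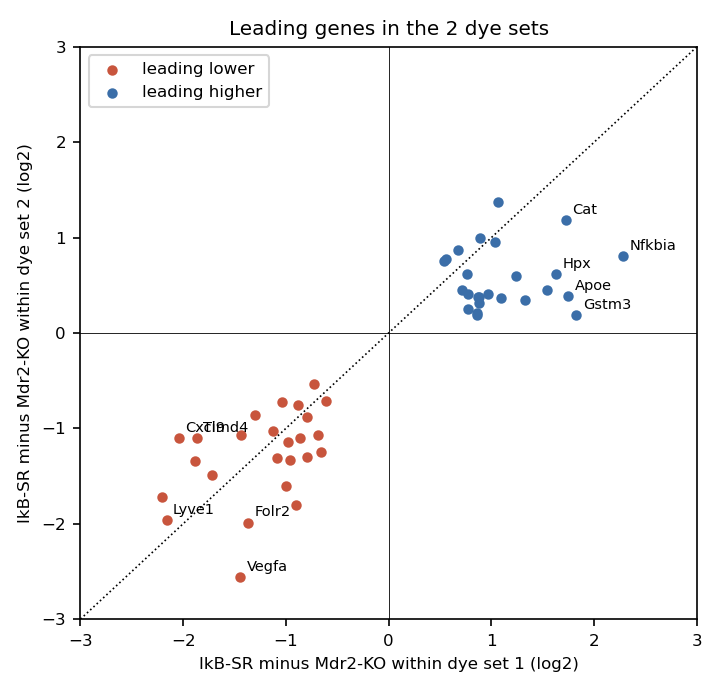
Difference of the leading genes between IkB-SR and Mdr2-KO tumours within dye set 1 (x axis, log2) and within dye set 2 (y axis, log2), 1 point per gene; the dotted line marks equal values. Most higher genes lie below the line, as Gstm3 does with 1.83 against 0.19, while the lower genes scatter around it.

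Plasma proteins of the hepatocyte formed another group of leading higher genes: albumin (Alb, 1.17), the haem carrier hemopexin (Hpx, 1.32), the protease inhibitor Serpina1a (0.67), the inter-alpha-trypsin inhibitor chain Itih4 (0.60) and the selenium carrier Selenop (0.67). The lipoprotein genes Apoe (1.25) and Apoc1 (1.00) and the growth factor binding protein Igfbp2 (1.02) were with them. Alb, Hpx and Serpina1a are on the hepatocyte marker list, of which 13 of 26 measured members were higher at an unadjusted p under 0.05, against 3.04% of all features. The median difference of that list was 0.57, with 0.73 in dye set 1, 0.22 in dye set 2 and 0.33 after quantile normalization. The detoxifying glutathione transferase Gstm3 differed by 1.16 and the lysosomal transporter Slc46a3 by 0.80.

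Deptor, an inhibitor protein of the mTOR kinase, had levels of 0.68, 0.74, 0.89 and 1.01 in Mdr2-KO tumours 1, 2, 5 and 7. In IkB-SR tumours it ran from 1.18 to 2.18 with a median of 1.91, all above the Mdr2-KO tumours, and it was at 2.79 in the wild-type liver. The difference was 0.99 (SE 0.18, adjusted p = 0.093), 1.24 in dye set 1 and 0.60 in dye set 2. Genes with levels below the reference were also among the leading higher ones, such as the T-box factor Tbx15 (0.66), the membrane protein gene Popdc3 (0.64), the checkpoint receptor Pdcd1 (0.58), the carbonic anhydrase Car12 (0.58), the homeobox gene Hoxc9 (0.76), the orphan receptor Gpr162 (0.64) and Rex2 (0.64). Med14, a subunit of the Mediator complex, differed by 0.58 and the helicase Ercc3 of the transcription factor TFIIH by 0.62. Ccdc171 averaged 0.97, while its tested probes ran from 0.27 to 1.50. Over named genes only, Myo3b (0.46) and Spata24 (0.48) passed beside Cat. They were chosen for mention after their values were seen, and the Myo3b probes measured in all tumours gave 0.03 and -0.01.

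To see how each tumour behaved on genes it had not helped to choose, the 50 leading genes per direction were chosen again without it and it was placed on a scale where 0 is the mean of the other Mdr2-KO tumours and 1 that of the other IkB-SR tumours. On the lower genes, Mdr2-KO tumours 1, 5 and 7 had medians of -0.17, 0.26 and 0.10. Mdr2-KO tumour 2 stood at 0.63, nearer the IkB-SR mean for 37 of 50 genes. IkB-SR tumours 3, 6, 9 and 10 stood at 0.85, 0.78, 1.07 and 0.91, the sample labelled IkB-SR 8 at 1.02 and IkB-SR tumour 4 at 0.45. On the higher genes the sample labelled IkB-SR 8 stood at 0.22 and IkB-SR tumour 6 at 0.47, whereas IkB-SR tumours 3, 4, 9 and 10 stood at 1.02, 1.26, 1.50 and 0.78. Mdr2-KO tumours 1, 2, 5 and 7 stood at 0.27, 0.17, 0.42 and 0.59 there. The sample labelled IkB-SR 8, whose Nfkbia level was not raised, thus lay at the IkB-SR mean on the lower genes and nearer the Mdr2-KO mean on the higher genes. IkB-SR tumour 6, whose Nfkbia level was raised, shares dye set 2 and a high Eif2s3y level with that sample. All tumours of dye set 2, of both groups, lay between 0.22 and 0.59 on the higher genes. What part Nfkbia, the dye set or sex has in these places was not tested.

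**Figure D3:**
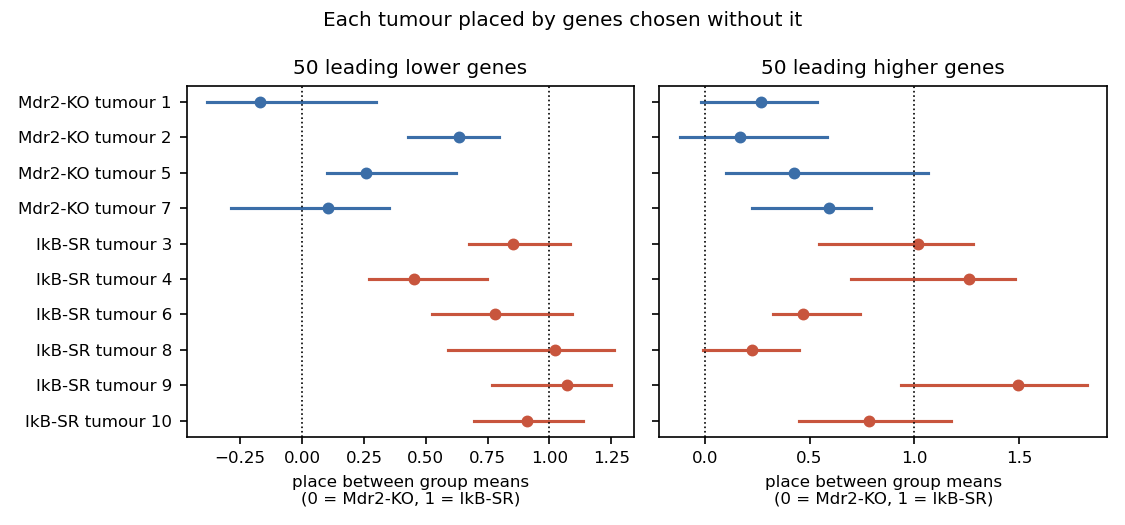
Place of each tumour between the group means (x axis; 0 is the Mdr2-KO mean, 1 the IkB-SR mean) on 50 lower genes (left) and 50 higher genes (right) that were chosen without it; points are medians over genes and bars the quartiles. Mdr2-KO 2 and IkB-SR 4 lie between the groups on the lower genes, and the sample labelled IkB-SR 8 lies at 0.22 on the higher genes.

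Vegfa did not stand alone on its chromosome. Of 41 tested genes in RefSeq order, from 10 before Vegfa to 30 after it on chromosome 17, 15 were lower at an unadjusted p under 0.05 (36.6%, against 9.37% of all features) and 0 were higher. This stretch was chosen after its values were seen and carries no test. In runs of 21 neighbouring tested genes, the highest share of lower genes was 61.9% on this chromosome, centred on Gtpbp2, and 14.3% to 42.9% on the other chromosomes. Over Vegfa and the 10 genes after it, Mdr2-KO tumours 1, 5 and 7 lay above the IkB-SR median of each gene by a median of 1.40, 1.94 and 1.49, and Mdr2-KO tumour 2 by 0.06.

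The 3 raised Mdr2-KO tumours did not share the same stretch. Tumour 5 had 15 genes at least 1 above the IkB-SR median, all from Slc35b2 to Srf. Tumour 7 had 29, from B230354K17Rik on 1 side to Mrps10 on the other. Tumour 1 had 8, which began at Vegfa itself. Tmem63b, a membrane channel gene just before Vegfa, had levels of -0.30, 0.09, 3.39 and 2.43 in Mdr2-KO tumours 1, 2, 5 and 7, so that tumours 5 and 7 were high. Xpo5, the exporter of microRNA precursors, had levels of 0.07, -1.45, 0.39 and 0.12, high in all but tumour 2. The ubiquitin ligase scaffold Cul7, further along, had -1.62, -1.26, -2.23 and 0.07, high among the Mdr2-KO tumours in tumour 7 alone. In the IkB-SR tumours at most 2 genes of the stretch lay 1 above the median, and copy number was not measured here. Hsp90ab1 (-1.29), a cytosolic chaperone, Polr1c (-1.61), a subunit of RNA polymerases I and III, and Mrps18a (-1.17) of the mitochondrial ribosome lie in this stretch and stand on process lists below. Polr1c and Mrps18a lay at least 1 above the IkB-SR median in Mdr2-KO tumours 1, 5 and 7 and not in tumour 2. Hsp90ab1 lay 0.56, 1.06, 1.89 and 1.72 above it in tumours 1, 2, 5 and 7, so its difference does not come from the 3 raised tumours alone.

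**Figure D4:**
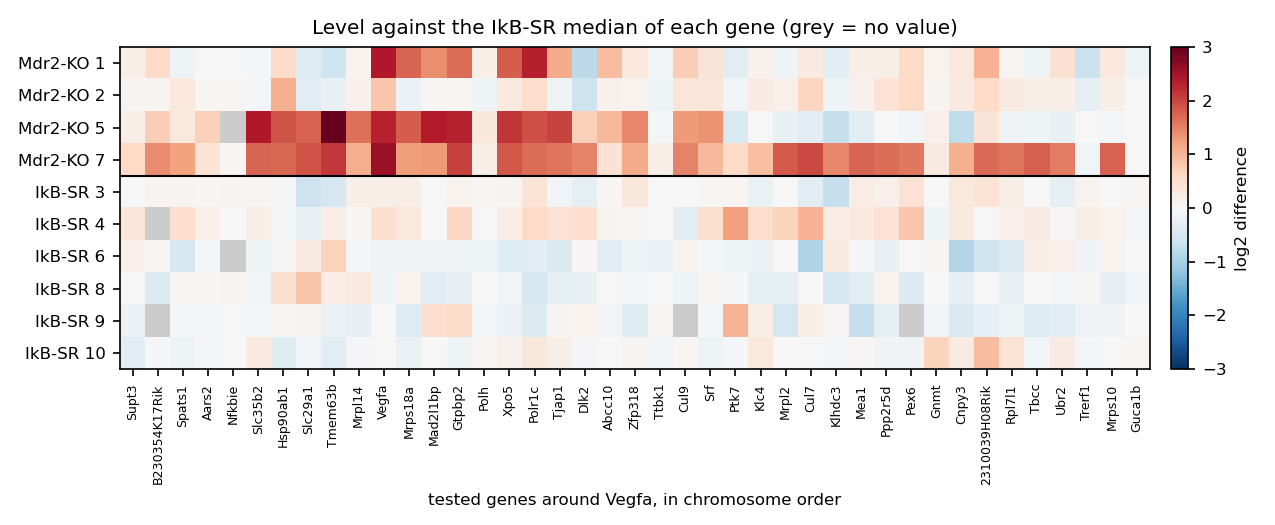
Level of each tested gene around Vegfa against the median of the IkB-SR tumours (colour, log2 difference; columns are genes in chromosome order, rows tumours, grey no value). Mdr2-KO tumours 1, 5 and 7 are raised over Vegfa and its neighbours, with different ends. Mdr2-KO tumour 2 is not, apart from single genes such as Hsp90ab1 (1.06) and Vegfa (0.82).

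Markers of cell types are given as levels before the process lists, and their counts stand beside 9.37% lower and 3.04% higher over all features. The endothelial markers averaged 1.68 to 2.92 in Mdr2-KO and 0.76 to 1.61 in IkB-SR tumours, and 20 of 23 were lower at an unadjusted p under 0.05. The macrophage and Kupffer cell markers averaged 2.12 to 2.82 and 1.58 to 1.98, with 15 of 23 lower. The hepatocyte markers overlapped, at 4.41 to 4.87 and 4.58 to 5.59. Of 8 neutrophil markers 5 were lower and 1 higher, led by the NADPH oxidase subunit Ncf1 (-0.78) and S100a8 (-2.09). Of 10 dendritic cell markers 6 were lower, among them the transcription factor Batf3 (-0.69) and the actin bundler Fscn1 (-0.97). B and plasma cell markers were lower in 3 of 9, led by the coactivator Pou2af1 (-1.35) and the receptor chain Cd79b (-0.99), with a median difference of only -0.09. Of the stellate cell and fibroblast markers 5 of 21 were lower, with a median difference of -0.22, and of the cholangiocyte markers 1 of 11, near the share over all features, with a median of 0.00. T and NK cell markers were lower in 3 of 13, while 6 of the 13 differences were above 0, and their median was -0.04. Ratios to a mixed reference cannot show that a marker is absent. What part these cell types have in the differences below was not tested.

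A total of 32 process lists was counted at an unadjusted p under 0.05, beside 9.37% lower and 3.04% higher over all features. Fbl was their only member past the threshold over all features. In 13 lists at least 14.3% of the members were lower and 0 were higher. That share is the lowest among these lists, the one of ribosome biogenesis, and was not set beforehand. In such short lists it stands for few genes, 4 of 28 in ribosome biogenesis and 3 of 17 in glycolysis. With 3.04% higher over all features, 0 higher members in a short list says little.

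**Figure D5:**
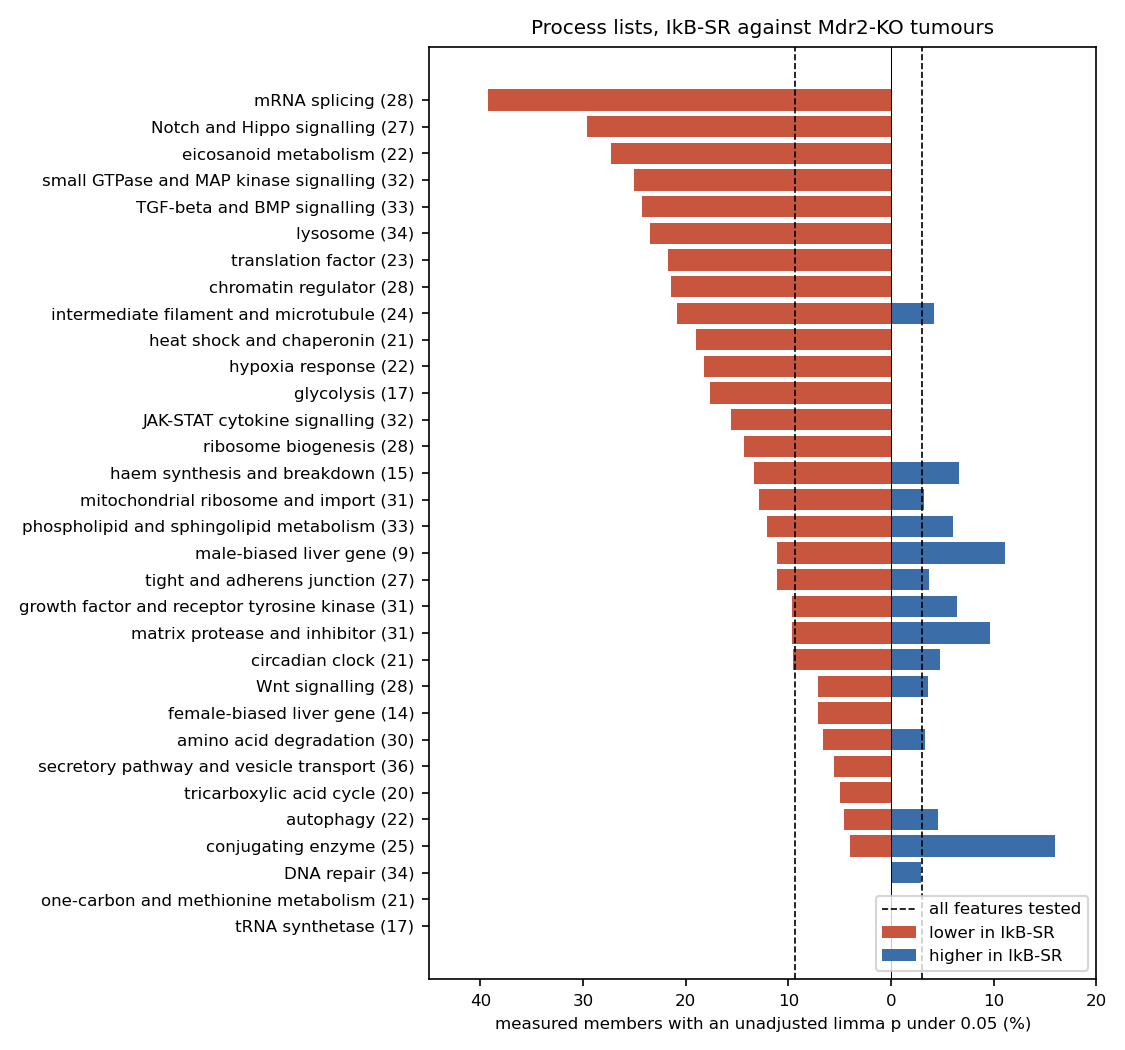
Share of the measured members of each process list (number in brackets) that were lower, to the left, or higher, to the right, in IkB-SR tumours at an unadjusted limma p under 0.05 (x axis, percent). Dashed lines mark the shares over all features tested, 9.37% lower and 3.04% higher, and mRNA splicing has the longest bar to the left with 39.3%.

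Lists of RNA handling held larger shares of lower members than all features, with small differences. Of 28 mRNA splicing genes 11 were lower and 0 higher, with a median difference of -0.24 (-0.18 in dye set 1 and -0.25 in dye set 2) that was -0.10 after quantile normalization. Srsf2, a serine-arginine protein that selects exons, had levels of -0.28, -0.68, -0.62 and -0.73 in Mdr2-KO tumours 1, 2, 5 and 7 and -1.62 to -1.04 with a median of -1.17 in IkB-SR tumours. The groups were apart, and Srsf2 differed by -0.64 (SE 0.13, adjusted p = 0.0999). Sf3b3 of the U2 particle, which recognises the branch point, differed by -0.49, the U1 protein gene Snrpa by -0.37 and Srsf7 by -0.27, the last with Mdr2-KO tumour 5 not measured.

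Ribosome biogenesis had 4 of 28 genes lower and a median of -0.14, which was 0.01 after quantile normalization and -0.02 in dye set 1. Besides Fbl and Polr1c these were Nop56 (-0.48), a core partner of fibrillarin, and Utp20 (-0.29) of small subunit assembly. The 28 include the gap junction gene Gja1 (-0.21, not past an unadjusted limma p of 0.05), which symbol matching put on this list. Of 23 translation factors 5 were lower, with a median of -0.13 that was -0.03 after quantile normalization. Pabpc1, the poly(A)-binding protein, had levels of -1.12, -1.21, -1.77 and -1.29 in the Mdr2-KO tumours and -2.39 to -1.84 with a median of -2.05 in the IkB-SR tumours, a difference of -0.76 (SE 0.15, adjusted p = 0.0999). The initiation factor Eif3f differed by -0.47, the elongation factor Eef1g by -0.39 and the helicase Eif4a2 by -0.56. In contrast, 0 of 17 tRNA synthetases were lower or higher in limma at an unadjusted p under 0.05, and their median was 0.00. Of 28 chromatin regulators 6 were lower, with a median of -0.14 that was -0.02 after quantile normalization. They included the corepressor Trim28 (-0.43), the acetyltransferase Kat2a (-0.33), the deacetylase Sirt1 (-0.34) and the DNA-bending protein Hmgb2 (-0.58).

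Several signalling lists also had a larger share of lower members than all features. Of 33 genes of TGF-beta and BMP signalling 8 were lower and 0 higher, 30 of 33 differences were below 0, and the median was -0.17 (-0.24 in dye set 1, -0.22 in dye set 2, -0.10 after quantile normalization). Tgfb1, the ligand that activates stellate cells, had levels of -0.75, -1.81, -1.60 and -1.03 in Mdr2-KO tumours 1, 2, 5 and 7. In IkB-SR tumours it lay at -3.02 to -1.92 with a median of -2.60, below all Mdr2-KO tumours. Tgfb1 differed by -1.24 (SE 0.25, adjusted p = 0.0999), with -1.23 and -1.29 within dye sets 1 and 2. The ligand Bmp2, made by the liver's endothelium to induce hepcidin, differed by -0.68, the inhibitory Smad6 by -1.16 and the BMP target Id1 by -2.03, for which 3 Mdr2-KO and 5 IkB-SR tumours were measured. Bmp2, Smad6 and Id1 are genes that endothelial cells express, and the endothelial markers were lower in the same tumours. What part endothelial cells have in these differences was not tested.

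Notch and Hippo signalling had 8 of 27 genes lower, 0 higher and a median of -0.17, which was -0.08 after quantile normalization. They included Lfng (-0.51), which glycosylates Notch receptors, Mob1a (-0.59), a coactivator of the LATS kinases, and the YAP targets Amotl2 (-0.67) and Ankrd1 (-0.55). The YAP targets Ccn1 (-0.27) and Ccn2 (-0.04) on the same list did not pass an unadjusted limma p of 0.05. Small GTPase and MAP kinase signalling had 8 of 32 lower, 0 higher and a median of -0.15, and its quantile value of -0.14 was close to that. Dusp6, the phosphatase that limits ERK, had levels of -1.48, -1.34, -0.73 and -1.49 in the Mdr2-KO tumours against -2.41 to -1.74 with a median of -2.01 in the IkB-SR tumours. Dusp6 differed by -0.79 (SE 0.19, adjusted p = 0.141) with no overlap. The haematopoietic GTPase Rac2 differed by -0.78, Rhob by -0.73 and Nras by -0.35.

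JAK-STAT cytokine signalling had 5 of 32 lower and 29 of 32 below 0, with a median of -0.13. Il10ra, the interleukin 10 receptor of leukocytes, had levels of 1.40, 1.13, 1.37 and 1.23 against 0.17 to 0.96 with a median of 0.49, a difference of -0.76 (SE 0.14, adjusted p = 0.093). The feedback inhibitor Cish differed by -0.82, the oncostatin M receptor Osmr by -0.46 and the interferon gamma receptor Ifngr1 by -0.44, with Mdr2-KO tumour 2 not measured for the last. Growth factors and receptor tyrosine kinases were mixed, with 3 of 31 lower and 2 higher. The stem cell factor receptor Kit (-0.82, 5 IkB-SR tumours measured), the ephrin Efnb2 (-1.51) and its receptor Ephb4 (-0.39) were lower. Wnt signalling lay at the background, with 2 of 28 lower, 1 higher and a median of -0.01.

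Genes of cell contacts and the cell skeleton included members with large differences. Ctnnd1, the catenin p120 that holds cadherins at the membrane, had levels of 0.56, 0.53, 0.60 and 0.67 in Mdr2-KO tumours 1, 2, 5 and 7. In the 5 IkB-SR tumours measured it lay at -0.10 to 0.28 with a median of 0.00, apart from the Mdr2-KO tumours. It differed by -0.53 (SE 0.09, adjusted p = 0.0794). The endothelial claudin Cldn5 differed by -1.55 and plakoglobin (Jup) by -0.50, while the hepatocyte gap junction protein Gjb1 was higher by 0.39. In all, 3 of 27 junction genes were lower and 1 higher, and 21 of 27 differences were below 0. The median of -0.21 was -0.28 in dye set 1, 0.07 in dye set 2 and -0.06 after quantile normalization. Among 24 intermediate filament and microtubule genes 5 were lower and 1 higher, with Dctn1 of the dynactin motor at -0.47 (SE 0.09, adjusted p = 0.0982), the tubulin Tubb5 at -1.0 and the mesenchymal filament Vim at -0.96. Among 31 matrix proteases and inhibitors 3 were lower and 3 higher. Adam10, the sheddase of Notch and other receptors, differed by -0.60 (SE 0.14, adjusted p = 0.115) and the inhibitor Timp3 by -1.07, whereas the proteases Mmp3 and Mmp9 were higher by 0.56 and 0.63.

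Lysosomal genes were lower in 8 of 34 members and higher in 0, with a median of -0.16 (-0.28 in dye set 1, -0.08 in dye set 2, -0.07 after quantile normalization). Laptm5, a lysosomal membrane protein of blood cells, had levels of -0.71, -0.77, -0.86 and -0.41 in the Mdr2-KO tumours and -1.66 to -1.04 with a median of -1.44 in the IkB-SR tumours. It differed by -0.69 (SE 0.15, adjusted p = 0.111). Prosaposin (Psap) differed by -0.72, the protease legumain (Lgmn) by -0.58 and progranulin (Grn) by -0.35. Eicosanoid metabolism had 6 of 22 lower and 0 higher, with a median of -0.14 that was -0.05 after quantile normalization. Ptgs1, the cyclooxygenase that starts prostaglandin and thromboxane synthesis, had levels of -1.59, -2.08, -1.72 and -1.06 against -3.35 to -2.15 with a median of -2.94. It differed by -1.22 (SE 0.26, adjusted p = 0.109), Alox5ap of leukotriene synthesis by -0.59, the platelet-activating factor hydrolase Pla2g7 by -1.03 and the lipoxygenase Alox12 by -0.51. Macrophages and platelets are known to express these genes. The macrophage markers were lower in the same tumours, and the part of these cells in the differences was not tested. Of 6 mast cell and platelet markers 4 were lower, among them the platelet genes Pf4 (-1.32) and Itga2b (-0.81). The 6 include the B cell gene Ms4a1 (-0.09), which symbol matching put in place of Ms4a2 and which was not among the lower ones.

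Glycolysis had 3 of 17 genes lower and 14 of 17 below 0, with a median of -0.26 that was -0.35 in dye set 1, -0.11 in dye set 2 and -0.16 after quantile normalization. The lower genes were hexokinase Hk2 (-0.50), aldolase Aldoa (-0.49) and the phosphofructokinase Pfkp (-0.64). The tricarboxylic acid cycle had 1 of 20 lower, one-carbon and methionine metabolism 0 of 21, and DNA repair 0 of 34 with Ercc3 higher. Conjugating enzymes were the list with the highest share of higher members, 4 of 25 against 1 lower, led by the glucuronosyltransferase Ugt2b5 (0.82) and the epoxide hydrolase Ephx1 (0.34). Of the 25 differences 15 were below 0, and the median of -0.07 was 0.07 after quantile normalization. The sphingolipid enzyme Sptlc2 was higher by 0.48 with 5 IkB-SR tumours measured, and Alas1, the first enzyme of haem synthesis, was lower by 0.62. Timm17a, a subunit of the mitochondrial import channel, had levels of -1.20, -1.16, -0.93 and -1.16 in the Mdr2-KO tumours against -0.82 to -0.44 with a median of -0.63 in the IkB-SR tumours, and differed by 0.49 (SE 0.09, adjusted p = 0.0937). Uroc1 of histidine breakdown averaged 1.91, but its probe measured in all tumours gave 0.07. Of 21 heat shock and chaperonin genes 4 were lower, the chaperonin subunit Cct7 (-0.31) and Hsp90ab1 among them.

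Sex-biased liver genes were counted because of Eif2s3y. The 9 measured male-biased genes had a median of 0.47, which was -0.17 in dye set 1 and 1.11 in dye set 2, where Eif2s3y followed the groups. With Eif2s3y as a covariate it was -0.51. Cyp2d9, a male-specific cytochrome, had levels of 5.07, 4.94, 2.69 and 3.45 in Mdr2-KO tumours 1, 2, 5 and 7, so that tumours 1 and 2 were high despite their low Eif2s3y. It differed by 0.82 (SE 0.53), and Selenbp2 by 0.54. Srd5a2, a steroid reductase, was lower by 0.75 (SE 0.18, adjusted p = 0.158) with 5 IkB-SR tumours measured. Of 14 female-biased genes 1 was lower, Cyp4a10 (-1.57, SE 0.51, adjusted p = 0.25), and the median was -0.09. With Eif2s3y as a covariate, 11 of 45 list medians moved by more than the spread between tumours, in different directions. TGF-beta and BMP signalling was among these, at -0.33 and further below 0 than without it, as were the conjugating enzymes, which turned from -0.07 to 0.17. The lists named next moved by less than that spread. Splicing and the lysosome were at -0.33 and -0.30, further below 0 than without the covariate. Ribosome biogenesis was at -0.07, the endothelial markers at -0.82 and the macrophage markers at -0.62, nearer 0 than without it, and amino acid degradation turned from -0.15 to 0.03. The part of sex in the differences was not tested.

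The wild-type liver, 1 sample of dye set 2, lay nearer the IkB-SR mean than the Mdr2-KO mean for 1111 of 1630 lower features (68.2%) and for 193 of 520 higher features (37.1%). Among the 11 lower splicing genes it was nearer the IkB-SR mean for 10. For the higher features, such as Cat and Phyh, the Mdr2-KO tumours were thus more often the nearer group.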

How the data were processed

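Per the labels' protocols, tumour RNA was amplified with T7 polymerase and hybridised on 2-colour spotted arrays against a universal mouse reference RNA, with dye swap. The values are log2 ratios as the authors deposited them, 1 per spot and array; no source used here gives their background correction, normalization or spot filter, the log base 2 is assumed, and the direction is likely. The table holds 37632 spots. GEO's platform annotation named 20879 spots with 1 symbol and 16753 with none, and 5005 symbols were updated.

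Both arrays of a tumour were averaged per spot, then the spots of a gene. Features measured in no fewer than 3 of the Mdr2-KO tumours and 4 of the others were tested with limma 3.58.1 in R 4.3.3 (lmFit, eBayes, two-sided, Benjamini-Hochberg over all features, threshold 0.05), which gave every adjusted p in the text. Levels of Nfkbia and Eif2s3y were also compared by exact permutation over tumours. Tables and figures used Python 3.11.15, pandas 2.3.3, numpy 2.4.6 and matplotlib 3.10.9. The fit was tested on simulated data.

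This order of averaging is the one the design describes. It was settled after the counts under 3 orders had been seen: 5 features here, 0 when only probes measured in all tumours were averaged, and 5 when probes were averaged first. Dye sets were defined from the data, by an SD of the difference between swapped arrays below or above 0.5, after values were seen.

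Named genes are the 25 per direction with the smallest p, an absolute difference of at least 0.58 and the same sign in both dye sets, the 4 members of each process list and 2 of each marker list with the smallest p, and Nfkbia, Abcb4 and Eif2s3y; not all are printed. Genes around Vegfa, Myo3b and Spata24 were added after their values were seen. The comparison and all lists were chosen with earlier results of these data known. Alternatives covered the filter, averaging, dye, scaling, array weights, Eif2s3y, the dye sets and leaving out each tumour.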

Additional observations from a re-analysis of the deposited data

Results flagged for a closer look

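In 12 of 269 gene and group combinations (4.46%), 1 tumour lay far from the rest of its group by Dixon's criterion, which chance meets in about 1 in 20 groups. Levels are log2 ratios to the reference.

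Mdr2-KO tumour 2 was at -0.15 for Vegfa, where the other Mdr2-KO tumours had 1.34 to 1.61, and at 0.41 for Cish, where they had -0.65 to -0.50. Mdr2-KO tumour 7 was high for Lfng (-0.41 against -0.97 to -0.91), Rhob (-0.061 against -0.43 to -0.38) and Adam10 (-0.53 against -1.02 to -0.94). Mdr2-KO tumour 5 was low for Vim (-4.70 against -3.79 to -3.68) and high for Timm17a (-0.93 against -1.20 to -1.16).

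The sample labelled IkB-SR 8 was high for Cxcl9 (2.55 against 1.54 to 1.84) and Ankrd1 (-4.16 against -4.65 to -4.48) and low for Uroc1 (3.26 against 5.47 to 6.72). IkB-SR tumour 9 was low for Srsf2 (-1.62 against -1.25 to -1.04). IkB-SR tumour 10 was low for Myo3b (0.00073 against 0.16 to 0.23).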

How the results depend on the processing

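The number of features past the threshold, 5 as reported, depended on nearly every choice. It was 19 over named genes only, 22 among features with a value on all 20 arrays, 1 without the filter, 1 for each spot on its own and 59 with array weights. With all 20 arrays and a dye term it was 455. That fit took the tumour as a block, but the estimated correlation between the arrays of a tumour was 0.089, so they counted almost as separate samples. The count was 11 after median centring, 10 after quantile normalization, 9 with the dye set as a block, 17 within dye set 1, 3 with Eif2s3y as a covariate, 23 among tumours with low Eif2s3y, 8 on Cy3 and 2 on Cy5 tumour arrays. With only probes measured in all tumours, an alternative added after seeing the data, limma called 0 features, with 2262 at an unadjusted p under 0.05. Without 1 tumour the count ran from 0 (without Mdr2-KO 1, 5 or 7 or IkB-SR 3, 9 or 10) to 34 (without Mdr2-KO 2). It was 1 without IkB-SR 6, 13 without IkB-SR 4 and 15 without the sample labelled IkB-SR 8. It was 6 within dye set 2, and 5 with probes averaged first or the wild-type liver in the fit. Causes were not tested.

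Features higher at an unadjusted p under 0.05, 553 as reported, numbered 1090 after quantile normalization, 853 within dye set 1, 190 on Cy3 arrays and 346 (without Mdr2-KO 1) to 615 (without IkB-SR 6) without 1 tumour. Lower features, 1705 as reported, numbered 1002 after quantile normalization and 870 on Cy5 arrays.

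Without 1 tumour the Nfkbia difference was 1.59 to 2.21 and the Eif2s3y difference 2.79 to 3.99; the exact permutation p-values past 0.05 stand beside them above. Of 2856 alternative values of named genes, 2732 kept direction and call, 52 gained and 65 lost the call, and 7 changed sign. Those were Ntrk2 (0.033 over probes measured in all tumours), Cyp2d9 (-0.17), Slc35b2 (0.16) and Tmem63b (0.20) within dye set 1, and Abcb4 (0.082 after quantile normalization, 0.16 within dye set 2, and -0.36 to 0.045 without 1 tumour). Only a gene called as reported could lose the call, and most named genes were not called, so keeping the call mostly meant staying uncalled. The called genes kept theirs in few of the 10 fits without 1 tumour. Timd4 kept it in 4 of them, Cat, Ccl24 and Folr2 in 3 and Fbl in 2. Of 945 list medians, 893 moved by less than the spread between tumours and 52 by more.

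No paired analysis was possible because the groups share no tumour number. Spots without a value on many arrays limit the features tested.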

Other observations

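Median levels over whole chromosomes, taken against each gene's mean over the tumours, stood apart in a few tumours. IkB-SR tumour 9 was at 0.20 on chromosome 15 and 0.23 on chromosome 16. The sample labelled IkB-SR 8 was at 0.23 on chromosome 1. IkB-SR tumour 3 was at -0.22 on chromosome 14 and IkB-SR tumour 6 at -0.20 on chromosome 19. These values are descriptions with no test.

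The share of lower genes at an unadjusted p under 0.05 ran from 4.81% on chromosome 18 to 16.7% on chromosome 6. Besides chromosome 17, the highest share in a run of 21 neighbouring genes was 42.9% on chromosome 6, centred on Gimap6, a GTPase gene of lymphocytes that lies in a cluster of related genes.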
